A study of Mus musculus with 8 samples.

Results

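The genes described here are 50 synaptic adhesion and organizer genes, chosen by gene symbol from what their proteins do at synapses, out of 55450 genes counted. They belong to 16 families: neurexins, LAR-type receptor phosphatases, neuroligins, LRRTM, Slitrk, Elfn, IL1RAPL and netrin-G proteins, cerebellins, LGI proteins, contactins, contactin-associated proteins, teneurins, latrophilins, FLRT proteins, and the MDGA proteins with Igsf9b. RNA was sequenced from nuclei sorted by fluorescence out of the cortex of juvenile mice (an age in days is not given in the sources used here), with 1 cortex per library. Mice of both groups carried a Cre driver active in GABAergic neurons, the cells that inhibit cortical circuits, and a Cre-dependent reporter that labels their nuclei; the promoter of the driver is not given in the sources used here. The control mice had 2 normal copies of the thyroid hormone receptor gene (Thra+/+), and the mutant mice (Thra+/AMI) had 1 normal copy and 1 copy from which Cre turns on a dominant-negative receptor in the same neurons. The series asks how thyroid hormone times the maturation of parvalbumin neurons after birth, and the comparison below asks which synaptic adhesion genes differed in these nuclei with the mutant receptor.

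Synaptic adhesion molecules hold the membranes of an axon terminal and its target together and recruit release machinery and receptors to the contact. On the presynaptic side neurexins and LAR-type receptor phosphatases act as hubs. They bind many postsynaptic or secreted partners, among them neuroligins, LRRTM and Slitrk proteins, IL1RAPL proteins and cerebellins, and different combinations serve excitatory and inhibitory synapses. Thyroid hormone receptor α1, the receptor encoded by Thra, is a transcription factor that represses many of its target genes without hormone and activates them with it, and a dominant-negative form keeps the repressive action.

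Of the 8 deposited count tables, those labelled mutant 7 and mutant 10 agreed read for read at the 21975 detected genes that could be matched between them by a symbol of their own, including all 50 adhesion genes, and differed by less than the sampling noise, so they were counted as 1 sample. The comparison therefore had 4 controls (1 to 4) and 3 mutants (6, 7 and 8), with total counts of 10747169 to 13804734 reads. Thra itself was at 114 ± 9.35 CPM (counts scaled to a library of 1e6 reads; SD, n = 4) in controls and 87.5 ± 9.39 CPM (n = 3) in mutants, a log2 fold change of -0.39 with SE 0.11 that missed the threshold (adjusted p = 0.0543). Gene counts do not separate the mutant copy from the normal one, so this level does not check the genotype. Markers of GABAergic neurons were present in all libraries, and so was Slc17a7, the vesicular glutamate transporter of excitatory neurons. Gad1 and Gad2, which make GABA, lay between 520 and 664 CPM and between 367 and 497 CPM, while Slc32a1, the vesicular GABA transporter, lay at 17.8 to 31.6 CPM, below Slc17a7 at 46.9 to 94.5 CPM. Per unshared kilobase of genomic span, introns included, the control means were 14.7 CPM per kb for Gad1, 5.64 for Gad2, 6.07 for Slc32a1 and 5.95 for Slc17a7. By this measure only Gad1 of the 3 GABAergic genes stood well above the glutamatergic one, while in CPM both Gad1 and Gad2 did. Reads from Y-linked genes numbered 4 in control 4 and 3 in mutant 8, and 5094 to 6644 in the other libraries, so each group held 1 library without them.

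Control libraries 1 and 4 stood apart in a way that touches most adhesion genes, many of which are long. The genomic span of the 50 genes had a median of 109.2 kb and reached 2270.7 kb. Over all tested genes, the ratio of control 1 to control 4 changed with span: its median was 0.47 on the log2 scale for genes under 10 kb, -0.01 for genes of 10 to 100 kb and -0.73 for genes over 100 kb. Among the 24 tested adhesion genes over 100 kb the median ratio was -1.06 (range -1.76 to 0.16), and control 1 was the lowest and control 4 the highest control in 23 of them, with Mdga1 as the exception. The same order held in 8 of the 20 shorter adhesion genes, whose median ratio was -0.08. The controls spread widely at long adhesion genes, with a median coefficient of variation of 30.0%, against 11.6% at the shorter ones, while the mutants had 7.53% and 11.3%. The cause of this trend was not tested.

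**Figure D1:**
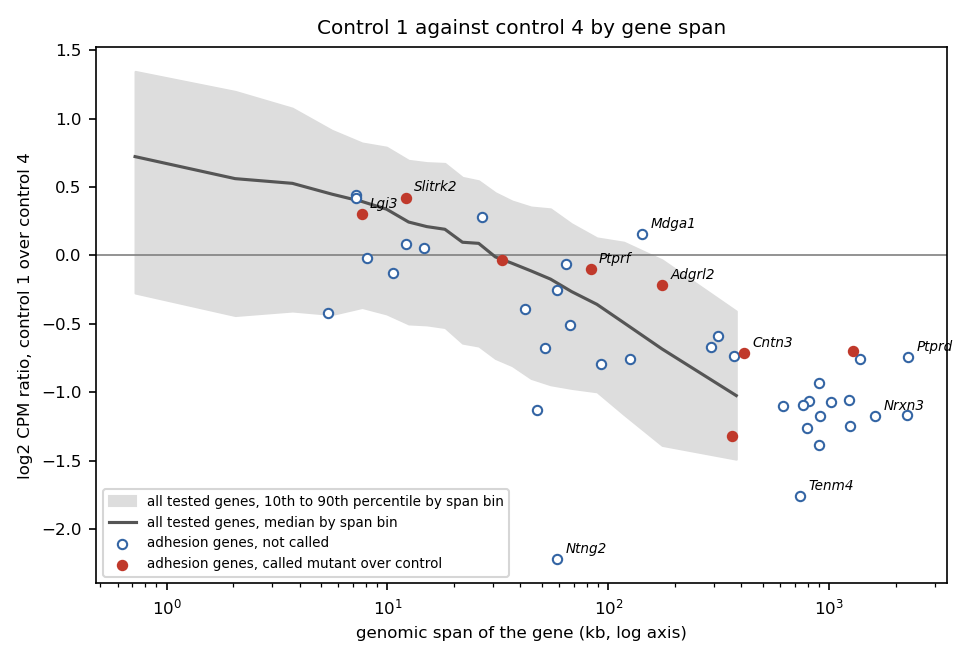
Log2 ratio of CPM in control 1 to CPM in control 4 (y axis) against the genomic span of the gene in kb (x axis, log scale). The grey line and band give the median and the 10th to 90th percentile over all tested genes, points are the tested synaptic adhesion genes (red where called mutant over control), and the long genes sit low, with a median of -1.06 over 100 kb.

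A minority of the synaptic adhesion genes, spread over 7 of the 16 families, changed, and the others did not pass the test. Of 50 genes, 44 had enough reads to be tested and 8 (18.2%) were called at an adjusted p under 0.05, against 9.42% of all 16448 tested genes and 13.3% of all tested genes over 100 kb. Lgi3, Cntn3, Il1rapl2, Ntng1 and Slitrk2 fell in the mutants, and Ptprf, Lgi2 and Adgrl2 rose. Of these, Cntn3, Il1rapl2, Ntng1 and Adgrl2 span over 100 kb and the others are shorter. The 18.2% covers genes of every length, so the 13.3% is not a matched share for it. The 5 falls and 3 rises stand beside 4.78% of all tested genes called lower and 4.63% called higher. The groups did not overlap in 9 adhesion genes (20.5%), beside 22% of all tested genes, so the share without overlap was near the background. The median log2 fold change of the 44 genes was 0.04, beside -0.01 over all tested genes, with 25 genes above 0 and 19 below.

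The number of called adhesion genes depended on single libraries. Leaving out control 4 raised it from 8 to 14 and leaving out control 1 raised it to 12. Leaving out control 2 or control 3 lowered it to 6 each, and leaving out mutant 6, 7 or 8 lowered it to 4, 5 and 5. The counts over all tested genes moved the same way, from 1549 to 2347 without control 4 and 2038 without control 1. They were 1046 without control 2, 1016 without control 3 and 766, 734 and 816 without mutants 6, 7 and 8. Ptprf, Il1rapl2, Lgi3 and Cntn3 were called under every one of the 17 alternatives run. In bulk nuclei, fewer cells of a type and less RNA per cell cannot be told apart.

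**Figure D2:**
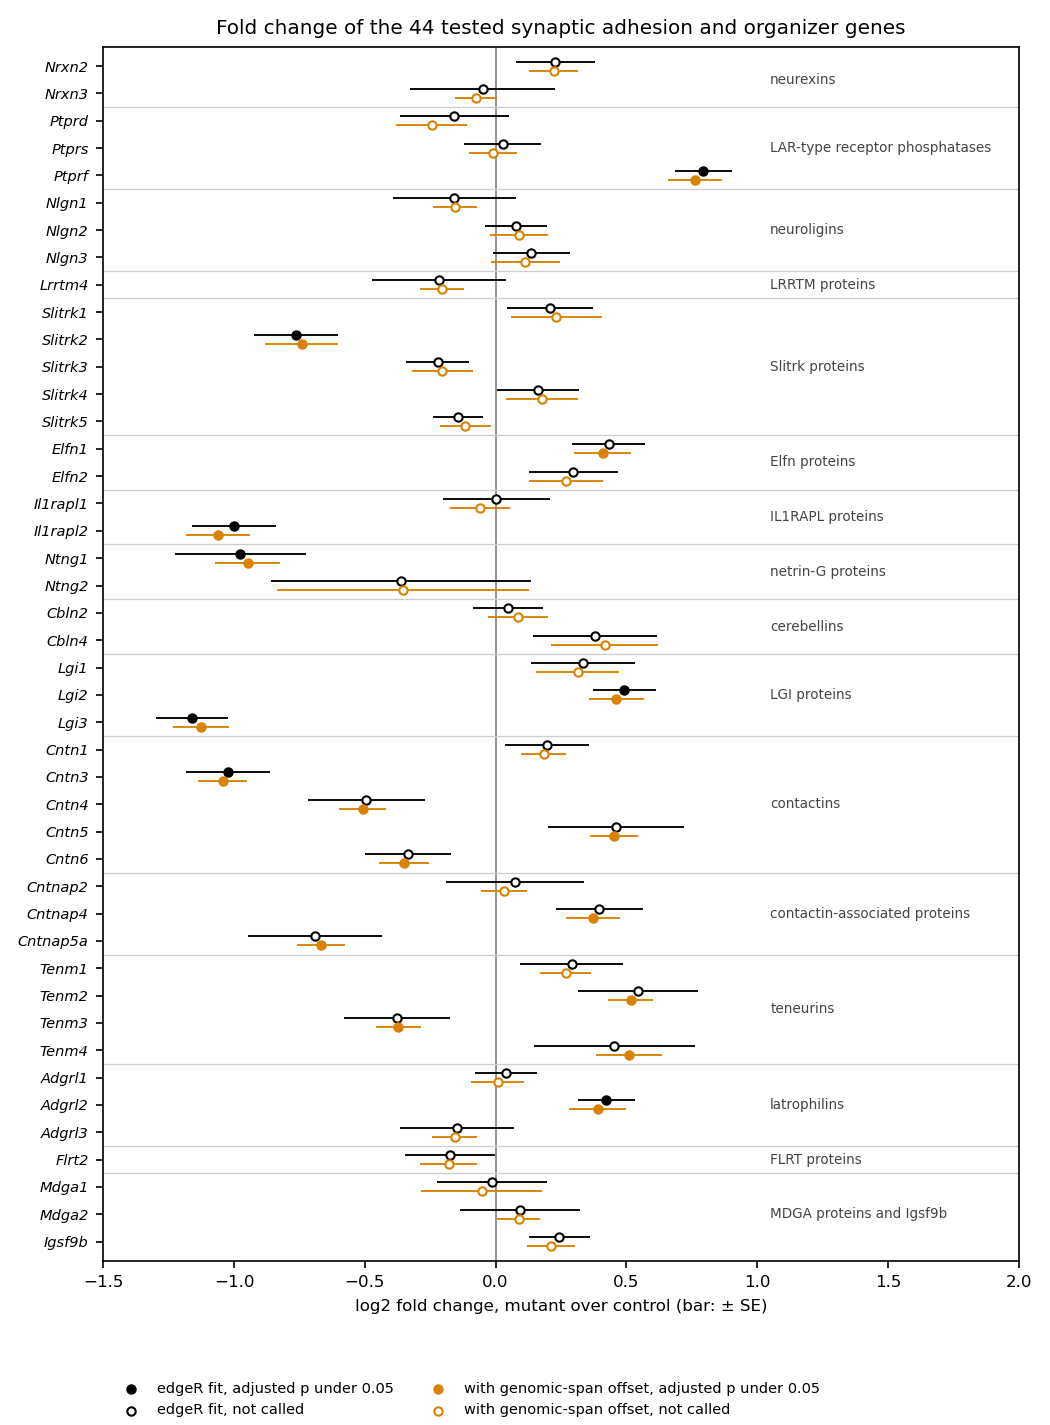
Log2 fold change of mutant over control with its standard error (x axis) for the 44 tested synaptic adhesion genes, arranged by family (y axis), without (black) and with (orange) an offset for genomic span; filled points are called genes. The black estimates run from -1.16 for Lgi3 to 0.79 for Ptprf, and the orange ones lie close to them, with shorter error bars at most long genes.

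Among the presynaptic hubs, 1 of the 3 LAR-type receptor phosphatases rose and the neurexins were not called. Ptprf, which encodes the founding member LAR (chromosome 4, 118208213 to 118291405, minus strand, build GRCm38), was at 76.2, 95.5, 93.0 and 81.8 CPM in controls 1 to 4 and at 153, 153 and 145 CPM in mutants 6, 7 and 8. Every mutant lay well above every control. The mean was 86.6 ± 9.16 CPM (SD, n = 4) in controls and 150 ± 4.36 CPM (n = 3) in mutants, a log2 fold change of 0.79 with SE 0.11 and an adjusted p = 0.000789 in edgeR's quasi-likelihood test. Its paralogs Ptprs and Ptprd had log2 fold changes of 0.03 and -0.16 and were not called. The ratio of Ptprf to Ptprs, formed after the values were seen, lay between 0.0897 and 0.106 in controls and between 0.153 and 0.171 in mutants.

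Nrxn3, the neurexin with the highest level here, was at 2826, 4355, 3851 and 6368 CPM in controls and at 4688, 4071 and 3849 CPM in mutants. The mutants lay inside the range of the controls, which was wide at this gene of over 1 Mb. Its log2 fold change was -0.05 with SE 0.28 (adjusted p = 0.948), and that of Nrxn2 was 0.23. Neurexin isoforms from different promoters or splice choices, which set the choice of partner, cannot be seen in counts per gene.

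The classical neurexin partners on the postsynaptic side did not pass the test. Nlgn1, the neuroligin known from excitatory synapses, was at 450, 707, 565 and 1014 CPM in controls and 629, 595 and 616 CPM in mutants, with the mutants again inside the controls' range (log2 fold change -0.16, SE 0.23, adjusted p = 0.765). Nlgn2, the neuroligin of inhibitory synapses, and Nlgn3, which occurs at both kinds, had log2 fold changes of 0.08 and 0.14. For Nlgn3, 82.8% of the span is shared with other genes, and its level rests on the remaining 4.615 kb. Lrrtm4, a leucine-rich repeat protein that binds heparan sulfate on neurexins and glypicans, was at 780, 1300, 1061 and 1873 CPM in controls and 1191, 1069 and 975 CPM in mutants. These values overlap broadly (log2 fold change -0.22, SE 0.26, adjusted p = 0.693).

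Lrrtm1, Lrrtm2, Lrrtm3, Cbln1, Flrt1 and Flrt3 were listed at 0 in every library. Each lies wholly inside a gene on the opposite strand: the 3 Lrrtm genes inside Ctnna2, Ctnna1 and Ctnna3, Cbln1 inside the noncoding Gm2694, and Flrt1 and Flrt3 inside Macrod1 and Macrod2. All 13127 genes of the annotation that share every base with other genes were at 0 in all libraries, against 21.8% of the 30118 genes with at least 1 kb of their own. The 0 therefore gives no information on whether the neurons express these 6 genes, and the deposited counts appear to leave out reads at positions shared by genes on either strand.

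Of the Slitrk proteins, postsynaptic leucine-rich repeat ligands of the LAR-type phosphatases, Slitrk2 fell and 4 others were not called. Slitrk2 (chromosome X, 66649318 to 66661393, plus strand) was at 29.5, 26.4, 25.1 and 22.0 CPM in controls and at 13.1, 17.9 and 14.6 CPM in mutants, from 167 to 372 reads a library. All 3 mutants were below all 4 controls. The mean went from 25.8 ± 3.10 CPM (SD, n = 4) to 15.2 ± 2.47 CPM (n = 3), a log2 fold change of -0.76 with SE 0.16 (adjusted p = 0.00992). The call was lost without mutant 6 (log2 fold change -0.67, adjusted p = 0.0652) and without mutant 8 (-0.73, 0.0598). With a term for the libraries that lack Y-linked reads the log2 fold change of this X-linked gene was -0.74. Slitrk5 also did not overlap between the groups, at 68.2 ± 1.74 CPM in controls and 61.8 ± 0.837 CPM in mutants, but this small difference was not called (log2 fold change -0.14, adjusted p = 0.43). Slitrk3, which pairs with Ptprd at inhibitory synapses, was at -0.22, Slitrk1 at 0.21 and Slitrk4 at 0.16 on the log2 scale, none of them called.

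Elfn1 and Elfn2, postsynaptic proteins that bind metabotropic glutamate receptors across the cleft, were not called. Elfn1, known for setting the facilitating input onto somatostatin interneurons, was at 70.0, 83.3, 82.7 and 99.4 CPM in controls and 93.6, 117 and 129 CPM in mutants. Mutant 6 lay below control 4 and the other mutants above all controls (log2 fold change 0.43, SE 0.14, adjusted p = 0.0792). Elfn2 had a log2 fold change of 0.30.

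The IL1RAPL genes are X-linked paralogs whose proteins bind LAR-type phosphatases from the postsynaptic side, and of these 2 genes Il1rapl2 fell and Il1rapl1 was not called. Il1rapl2 (chromosome X, 137570608 to 138846946, plus strand) was at 185, 241, 204 and 301 CPM in controls and at 118, 121 and 111 CPM in mutants. The mutants were close to each other and all lay below the lowest control. The mean fell from 233 ± 51.1 CPM (SD, n = 4) to 116 ± 4.77 CPM (n = 3), a log2 fold change of -0.999 with SE 0.16 (adjusted p = 0.00198), and it was -0.999 with a term for libraries without Y-linked reads. Il1rapl1, a gene linked to intellectual disability, had a log2 fold change of 0.00 (adjusted p = 0.997). The ratio of Il1rapl2 to Il1rapl1 varied little within a group, being 0.211, 0.176, 0.196 and 0.203 in controls and 0.0922, 0.0986 and 0.102 in mutants. It was formed after the values were seen, and the difference between the paralogs was not tested.

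The netrin-G proteins are lipid-anchored relatives of netrins that sit on axons and bind the NGL proteins of dendrites. Ntng1 (chromosome 3, 109780040 to 110144011, minus strand) was at 30.9, 47.7, 40.6 and 77.3 CPM in controls and at 26.5, 26.1 and 22.3 CPM in mutants. All mutants lay below all controls, but control 1 came close to mutant 6, and control 4 stood high. The log2 fold change was -0.98 with SE 0.25 (adjusted p = 0.0289). This call was lost without control 2 (log2 fold change -0.99, adjusted p = 0.0692) and without mutant 6 (-1.02, 0.0975), mutant 7 (-1.002, 0.107) or mutant 8 (-0.89, 0.137), and when no filter on low counts was used (-0.97, 0.152). Ntng2, a low gene, was at -0.36 and not called, and its sign rested on control 4, without which the log2 fold change was 0.38 (0.24 without controls 1 and 4, and 0.19 with limma-voom).

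**Figure D3:**
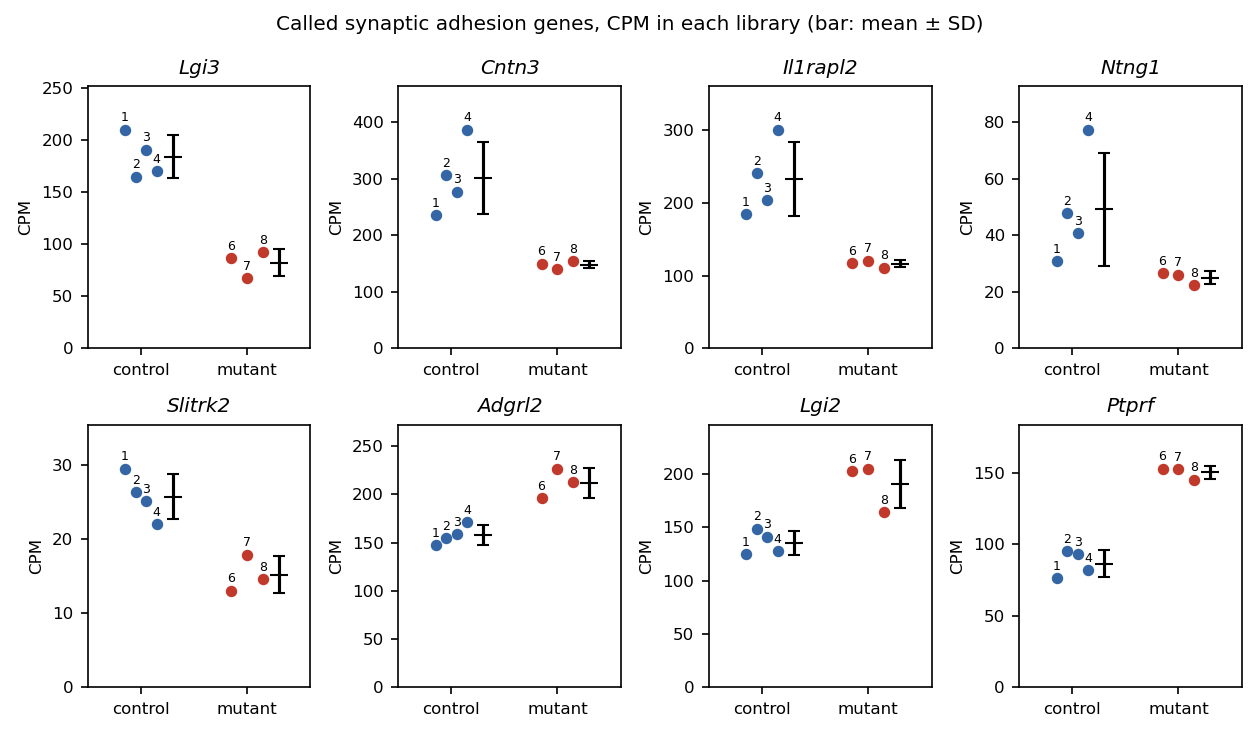
CPM in each library for the 8 called synaptic adhesion genes, with library numbers beside the points and mean ± SD as bars (y axes in CPM, starting at 0). In every panel the 3 mutants and 4 controls do not overlap, and control 4 stands high in Ntng1, Cntn3 and Il1rapl2.

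Among the secreted organizers the LGI genes moved in opposite directions, and the cerebellins were not called. LGI proteins are secreted and bind ADAM22 and ADAM23, anchoring receptors and potassium channels at synapses and axons. Lgi3 (chromosome 14, 70530685 to 70538324, plus strand) was at 210, 165, 190 and 170 CPM in controls and at 86.7, 67.7 and 92.0 CPM in mutants. Every mutant lay far below the lowest control. The mean went from 184 ± 20.6 CPM (SD, n = 4) to 82.1 ± 12.8 CPM (n = 3), a log2 fold change of -1.16 with SE 0.14 (adjusted p = 0.000275), the largest fall among the 44 tested adhesion genes. Per kilobase of span not shared with other genes, Lgi3 also had the highest control level of these genes, at 24.0 CPM per kb. Ptprs followed at 14.2 and Nlgn3 at 10.2. This divisor counts introns, which lowers the value of long genes: Nrxn3, with a control mean of 4350 CPM over 1603 kb, was at 2.71 CPM per kb. The order is therefore not a ranking of RNA amount.

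Lgi2 (chromosome 5, 52533517 to 52566462, minus strand), which has been linked to remitting juvenile epilepsy in dogs, was at 125, 148, 141 and 127 CPM in controls and at 202, 205 and 164 CPM in mutants. All mutants exceeded all controls, with mutant 8 nearest to them. The log2 fold change was 0.49 with SE 0.12 (adjusted p = 0.0222), and the call was lost without control 3 (0.52, adjusted p = 0.0589), mutant 6 (0.45, 0.115) or mutant 7 (0.44, 0.127). The ratio of Lgi2 to Lgi3 was 0.594, 0.903, 0.741 and 0.749 in controls and 2.33, 3.03 and 1.79 in mutants. Per unshared kilobase of span, introns included, Lgi3 was the higher of the pair, at 24.0 against 4.63 CPM per kb in controls and 10.7 against 6.51 in mutants. In CPM, Lgi2 was the higher in mutants, at a mean of 190 against 82.1. Which of the pair is higher in mutants thus depends on the divisor, and levels per exonic kilobase were not computed. Lgi1, the epilepsy gene of the family, was not called at 0.33 on the log2 scale.

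Cbln2, a secreted protein that bridges neurexins and delta-type glutamate receptors, was at 30.9, 28.6, 26.6 and 22.7 CPM in controls and 27.8, 28.6 and 28.1 CPM in mutants. The mutants lay within the range of the controls (log2 fold change 0.05, SE 0.13, adjusted p = 0.888). Cbln4, a cerebellin of somatostatin interneurons, was low and at 0.38, not called.

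Sequence before the start sites of called genes was read from RefSeq (build GRCm38.p6) to show where the half-site bound by thyroid hormone receptors, AGGTCA, occurs. The 3 stretches below are the 250 bases before the RefSeq start of Ptprf, the largest rise, of Il1rapl2, a fall that passed every alternative, and of Lgi2, the only called gene with the half-site in this window. They are written 5′ to 3′ on the strand of the gene with the half-site in capitals. Their starts lie 8, 146 and 156 bases from the annotated start of the counted gene. The RefSeq starts of Cntn3 and Adgrl2, whose windows are counted below, lie 108434 and 35920 bases from the annotated starts. For Slitrk2, 1 of the RefSeq starts lies 3841 bases away. These windows are thus not at the annotated starts.
Ptprf, chr4:118291398-118291647, minus strand: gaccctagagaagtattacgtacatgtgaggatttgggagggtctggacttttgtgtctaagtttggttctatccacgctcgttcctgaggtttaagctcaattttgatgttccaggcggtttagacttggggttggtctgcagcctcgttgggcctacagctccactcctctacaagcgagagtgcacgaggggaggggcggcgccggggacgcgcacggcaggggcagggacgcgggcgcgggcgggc
Il1rapl2, chrX:137570504-137570753, plus strand: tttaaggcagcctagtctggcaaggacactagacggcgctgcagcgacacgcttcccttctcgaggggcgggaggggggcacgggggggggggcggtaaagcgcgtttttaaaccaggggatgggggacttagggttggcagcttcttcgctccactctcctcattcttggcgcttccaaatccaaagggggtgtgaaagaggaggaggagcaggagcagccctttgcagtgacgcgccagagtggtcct
Lgi2, chr5:52566307-52566556, minus strand: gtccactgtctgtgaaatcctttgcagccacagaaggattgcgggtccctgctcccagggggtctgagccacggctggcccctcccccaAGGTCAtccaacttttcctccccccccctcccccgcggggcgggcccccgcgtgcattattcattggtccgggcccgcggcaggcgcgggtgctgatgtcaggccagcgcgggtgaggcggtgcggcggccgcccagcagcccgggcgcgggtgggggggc
The half-site of Lgi2 begins 161 bases before the start. Promoter entries matched 38 of the 50 genes (52 promoters), and 7 of the 8 called genes (8 promoters; no entry for Lgi3). AGGTCA on either strand was in 1 of the 8 promoters of called genes (12.5%), in 4 of the 52 promoters of adhesion genes (7.69%; Elfn1, Lgi2, Ptprs and Tenm1) and in 14% of all 32851 promoters of the same length. The direct repeat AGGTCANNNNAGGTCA was in 0 of the 52 and in 5 of all promoters (0.0152%). A match is a description of letters in this window and not evidence of a bound site.

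Contactins and their associated proteins hold axons to glia and other neurons and organize channel domains along the axon. Of the 5 contactins, Cntn3 fell and the others were not called. Cntn3 (chromosome 6, 102162655 to 102573101, minus strand) was at 236, 306, 277 and 387 CPM in controls and at 150, 141 and 154 CPM in mutants. The mutants were tightly grouped and all below the lowest control. The mean fell from 302 ± 63.8 CPM (SD, n = 4) to 148 ± 6.83 CPM (n = 3), a log2 fold change of -1.02 with SE 0.16 (adjusted p = 0.00179). Cntn1, a partner of neurofascin and Cntnap1 beside nodes of Ranvier, was at 0.20 on the log2 scale, Cntn4 at -0.49, Cntn5 at 0.46 and Cntn6 at -0.33, with adjusted p of at least 0.214.

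Cntnap2, which clusters potassium channels beside the nodes of myelinated axons, was at 1737, 2913, 2401 and 3894 CPM in controls and 3175, 2909 and 2555 CPM in mutants. The mutants lay inside the controls' range (log2 fold change 0.07, SE 0.26, adjusted p = 0.916). Cntnap4, an autism-linked member expressed in interneurons, was at 0.40 and Cntnap5a at -0.69, and neither was called.

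Teneurins are large membrane proteins that bind latrophilins, adhesion-type G-protein-coupled receptors, and FLRT proteins join the same complexes. In this group only the latrophilin Adgrl2 was called. Adgrl2 (chromosome 3, 148815583 to 148990555, minus strand) was at 148, 154, 159 and 171 CPM in controls and at 196, 227 and 213 CPM in mutants. All mutants were above all controls, with mean levels of 158 ± 9.99 CPM (SD, n = 4) and 212 ± 15.2 CPM (n = 3). The log2 fold change was 0.42 with SE 0.11 (adjusted p = 0.0299). The call was lost without control 2 (0.41, adjusted p = 0.0977), control 3 (0.43, 0.0883), mutant 6 (0.47, 0.0661), mutant 7 (0.38, 0.155) or mutant 8 (0.43, 0.113). The paralogs Adgrl1 and Adgrl3 had log2 fold changes of 0.04 and -0.15.

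Tenm2, a latrophilin ligand, was at 663, 1058, 898 and 1376 CPM in controls and 1625, 1433 and 1312 CPM in mutants. Only control 4 reached into the range of the mutants (log2 fold change 0.54, SE 0.23, adjusted p = 0.178). Tenm1 was at 0.29, Tenm3 at -0.38 and Tenm4 at 0.45, not called. Flrt2 was at 123, 142, 139 and 213 CPM in controls and 154, 127 and 129 CPM in mutants, inside the controls' range (log2 fold change -0.17, SE 0.17, adjusted p = 0.627).

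The genes that restrain or specialize these contacts were not called. Mdga2, whose protein covers neuroligins and keeps neurexins away, was at 583, 928, 774 and 1243 CPM in controls and 1027, 946 and 851 CPM in mutants. These lie inside the controls' range (log2 fold change 0.09, SE 0.23, adjusted p = 0.869). Mdga1 was at -0.01, with the lowest level per unshared kilobase of the tested adhesion genes, 0.0414 CPM per kb. Igsf9b, which is found with Nlgn2 at inhibitory synapses on interneurons, was at 0.24.

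When the trend across libraries with genomic span was taken out as an offset per library, more of the adhesion genes passed the test. All the added genes but Elfn1 (66.8 kb) span over 100 kb. With this offset 17 of the 44 genes were called, 9 lower and 8 higher, beside 16.5% of all tested genes, 8.68% lower and 7.81% higher. The share among all tested genes over 100 kb was not computed with the offset. Without the offset that share was 13.3%, beside 9.42% of all tested genes. Whether the count is high for genes of this length is therefore not known. The 17 included the 8 genes above. All 17 were also called when controls 1 and 4 were left out, a fit that called 19. The 9 added genes were Cntnap5a, Cntn4, Tenm3 and Cntn6, lower in mutants, and Cntnap4, Elfn1, Cntn5, Tenm4 and Tenm2, higher. In each of these 9 genes control 1 was the lowest and control 4 the highest control. Leaving both out keeps only control 2 and control 3 and narrows the spread of the controls by construction. The offset takes out the same trend between controls 1 and 4, so the agreement of these fits is not an independent check.

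The fold changes of these 9 genes hardly moved with the offset, and their errors became smaller. For Cntnap5a, a contactin-associated protein, the levels were 382, 673, 578 and 999 CPM in controls and 399, 408 and 417 CPM in mutants. The mutants lay above control 1 and below the other controls. Its log2 fold change was -0.69 with SE 0.25 without the offset (adjusted p = 0.122) and -0.67 with SE 0.091 with it (adjusted p = 5.8e-05). Cntn5, a contactin of the auditory pathway and cortex, was at 730, 1302, 1016 and 1735 CPM in controls and 1795, 1743 and 1393 CPM in mutants. Control 4 alone reached the mutants, and the log2 fold change was 0.46 without the offset and 0.45 with it (adjusted p = 0.335 and 0.00194).

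Of the teneurins, Tenm2 was at 0.52 (adjusted p = 0.000471) and Tenm4 at 0.51 (adjusted p = 0.00987) with the offset, and Tenm3 at -0.37 (adjusted p = 0.00581). The family was thus split, 2 genes higher and 1 lower. Cntn4 was at -0.51 (adjusted p = 0.000675), Cntn6 at -0.35 (adjusted p = 0.0153), Cntnap4 at 0.37 (adjusted p = 0.0192) and Elfn1 at 0.41 (adjusted p = 0.0142). With Cntn3 this made 3 contactins lower and 1 higher. With all libraries, the filter on low counts, genotype as the only term and no offset, edgeR called none of these 9 genes. Without that filter, or with the term for libraries without Y-linked reads, edgeR called Elfn1. DESeq2's test called Cntnap5a. In limma-voom, which gives each library a weight, 8 of them were called and Tenm3 was not (adjusted p = 0.121). Nrxn3, by contrast, was not called with the offset either.

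**Figure D4:**
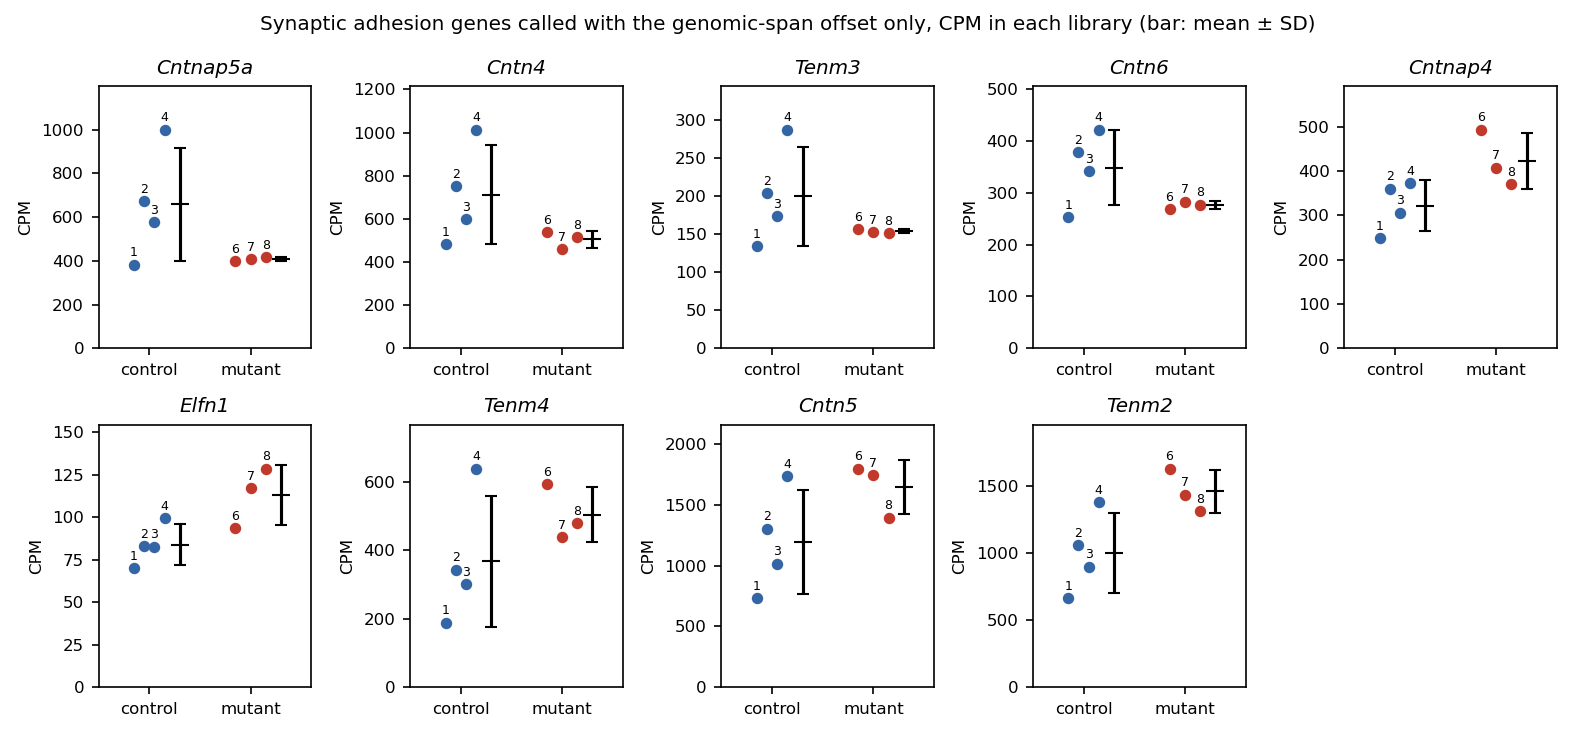
CPM in each library for the 9 synaptic adhesion genes called with the genomic-span offset but not by the same edgeR fit without it. Library numbers stand beside the points (y axes in CPM, starting at 0). Control 1 is the lowest and control 4 the highest control in each panel, and the mutants lie inside or beside that range.

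Known extracellular partners and paralogs of these genes, a list of 48 of which 41 were tested, had 9 called genes (22.0%), 4 lower and 5 higher, beside 9.42% of all tested genes. Their median log2 fold change was 0.03. Cadm2, a synaptic immunoglobulin adhesion protein of the SynCAM family, was at 1348, 2165, 1684 and 2767 CPM in controls and at 724, 695 and 707 CPM in mutants. No mutant came near the lowest control, and the log2 fold change was -1.49 with SE 0.24 (adjusted p = 0.00228). Its paralog Cadm1 went the other way, from 298 ± 60.2 CPM (SD, n = 4) to 611 ± 34.5 CPM (n = 3), a log2 fold change of 1.04 (adjusted p = 0.002).

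Cntn2, the axonal partner of Cntnap2, was at 110, 108, 119 and 101 CPM in controls and 51.4, 52.0 and 57.3 CPM in mutants. The groups were far apart (log2 fold change -1.03, SE 0.11, adjusted p = 0.000102). Cntnap1, the paranodal partner of Cntn1, was at -0.64 (adjusted p = 0.0176), a call lost without control 3 (0.0538), mutant 7 (0.122) or mutant 8 (0.118). The contactin-associated gene Cntnap3 was at 0.87 (adjusted p = 0.00306). Nxph2, a neurexophilin that binds neurexins from outside the cell, rose from 18.0 ± 0.715 CPM to 37.7 ± 3.91 CPM, a log2 fold change of 1.07 (adjusted p = 0.000259).

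Igsf9, the paralog of Igsf9b, was at -0.88 (adjusted p = 0.0141), and lost the call without mutant 6 (adjusted p = 0.0784), 7 (0.0648) or 8 (0.0621). The receptor phosphatase gene Ptpro was at 0.51 (adjusted p = 0.0375), and lost it without control 2 (0.0901), control 3 (0.094), mutant 6 (0.144), mutant 7 (0.16) or mutant 8 (0.0754). Slitrk6 was at 1.44 (adjusted p = 0.0427) on 5 to 22 reads a library and was called in 9 of 17 alternatives. Its call was lost without control 2 (adjusted p = 0.103), control 3 (0.0883), mutant 6 (0.0675), mutant 7 (0.208) or mutant 8 (0.14), with DESeq2's test (0.0573), without a filter (0.0636) and with the term for Y-linked reads (0.0539). Of 35 intracellular scaffold genes 2 were called (5.71%), with a median log2 fold change of -0.01. Lin7b, part of the complex that links neurexins to vesicle release, was lower at -0.64 (adjusted p = 0.0226), a call lost without control 2 (0.0568), control 3 (0.0752), mutant 6 (0.0884), mutant 7 (0.137) or mutant 8 (0.0811). The other, Magi3, was at 0.46 (adjusted p = 0.0406).

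**Figure D5:**
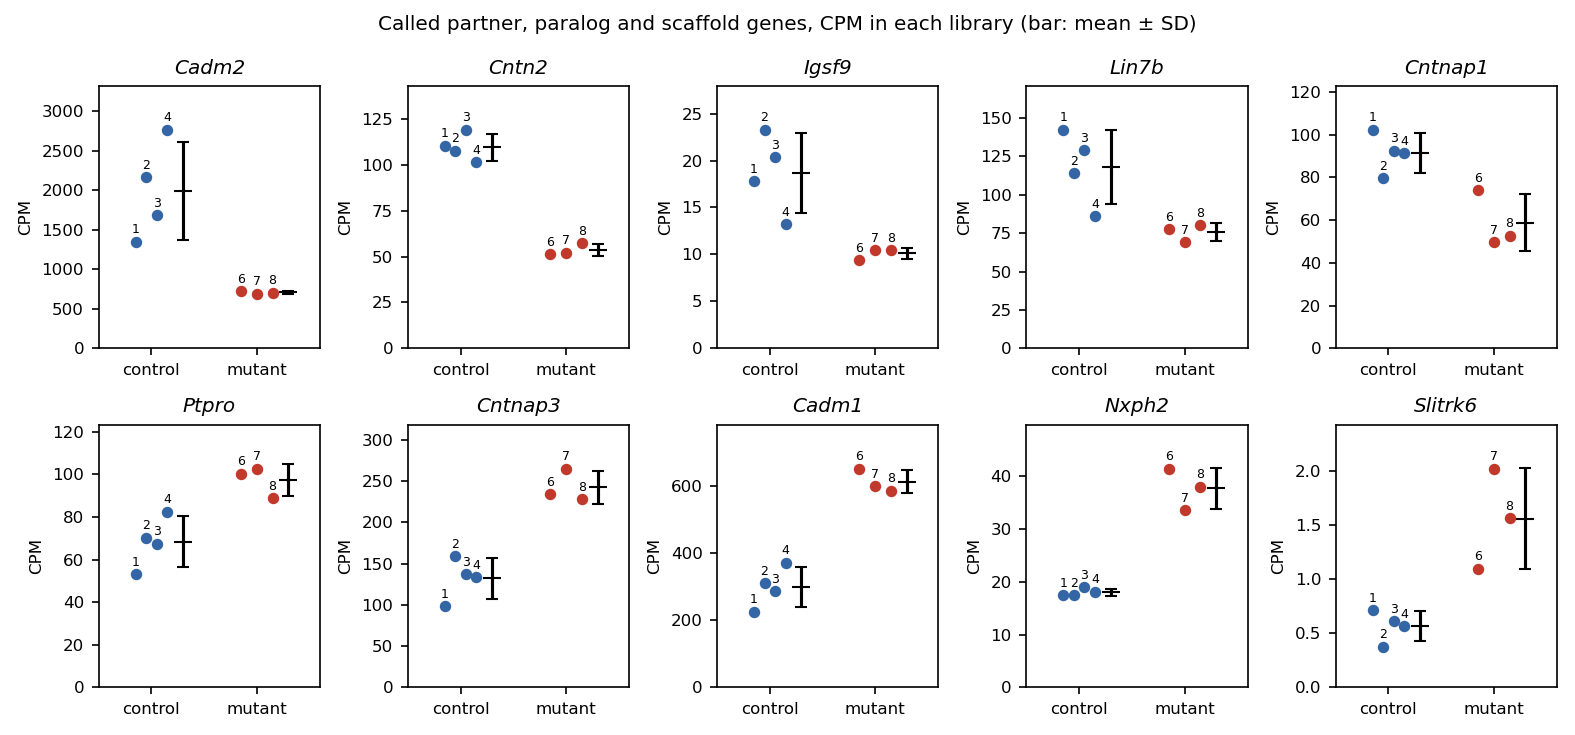
CPM in each library for the 10 called partner, paralog and scaffold genes with a log2 fold change of at least 0.5 in size, with library numbers beside the points and mean ± SD as bars (y axes in CPM, starting at 0). Cadm2 and Cntn2 are lower, and Cadm1, Cntnap3 and Nxph2 higher, in all 3 mutants than in all 4 controls.

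Markers of interneuron classes moved in the same comparison. Of 8 markers of parvalbumin neurons 3 fell and 0 rose. Pvalb itself, named with the next genes after their values were seen, went from 41.0 ± 5.91 CPM (SD, n = 4) to 1.81 ± 0.682 CPM (n = 3), a log2 fold change of -4.48 (adjusted p = 7.63e-07), and Syt2 and Kcnc1 were at -2.18 and -1.40. The summed level of the 8, carried mostly by Erbb4 and Kcnc2, which were not called, was 4325 to 7046 CPM in controls and 5540 to 6736 CPM in mutants. Of 7 somatostatin markers 3 rose and 1 fell (summed 675 to 888 CPM and 964 to 1205 CPM), of 7 VIP markers 3 rose and 1 fell (371 to 570 CPM and 549 to 577 CPM), and of 6 LAMP5 markers 1 rose and 1 fell (827 to 1014 CPM and 974 to 1251 CPM). Of these 4 sums only that of the somatostatin markers did not overlap between the groups. None of 6 tested GABAergic markers was called (summed 1133 to 1274 CPM and 1191 to 1421 CPM), and Dlx1 and Dlx6 were at 0, both with every base shared with other genes. The part of such shifts in the values of the adhesion genes was not tested.

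Markers of other cells were detected in both groups. The sum of 8 glutamatergic markers was 80.4 to 148 CPM in controls and 85.9 to 139 CPM in mutants, with none called. For 6 astrocyte markers it was 235 to 308 CPM and 183 to 207 CPM, with Slc4a4 called lower and Gfap at 0 (every base shared). For 6 oligodendrocyte markers it was 162 to 199.9 CPM and 181 to 214 CPM, with Mog called higher. Markers of oligodendrocyte precursors (16.7 to 23.6 CPM and 16.9 to 22.3 CPM), microglia (13.6 to 18.2 CPM and 17.7 to 22.4 CPM, with P2ry12 at 0 and every base shared) and endothelial cells (46.4 to 105 CPM and 46.2 to 68.2 CPM) had no call. Only the astrocyte sums did not overlap between the groups, and the part of these cells in the values of the adhesion genes was not tested.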

How the data were processed

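Nuclear RNA of sorted nuclei was copied with SMART-Seq v4, made into Nextera XT libraries and sequenced in pairs, per the labels' protocols; this chemistry has no molecular identifiers, so read numbers cover counting error only. The authors deposited whole-number read counts for each gene, without normalization. The submitters' processing notes name Bowtie2 2.5.3 and the builds mm10 and GRCm38; the counting program, annotation and strand setting are not given in the sources used here. All 55450 gene identifiers were found in GENCODE M21, from which symbols and coordinates were taken. At 10747169 to 13804734 counts a library, 44 of the 50 genes passed the filter on low counts, and the other 6 were at 0.

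Counts were analysed with edgeR 4.0.16 in R 4.3.3: filterByExpr (least count 10, least total 15), TMM scaling, a robust quasi-likelihood fit with the genotype as its only term, two-sided tests and Benjamini-Hochberg adjustment over all 16448 tested genes, so every adjusted p above is from this fit unless another is named. SE is the size of the log2 fold change divided by the square root of F. CPM were scaled by TMM factors. The span offset subtracts, per library, a natural spline (5 degrees of freedom) of log2 CPM deviation on the logarithm of genomic span. limma 3.58.1 (voom with sample weights) and DESeq2 1.42.0 were alternatives. The model was tested on simulated counts with the means, library sizes and dispersions of these data. It recovered 75 of 100 log2 changes of 1 in size and 93 of 97 of 2, with 8 false calls among 16202 genes. The simulated libraries held no trend with genomic span, so the test does not cover the spread between controls 1 and 4. Libraries come from individual cortices, per the labels.

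The 50 genes, their partners and scaffolds, and the marker lists were chosen with earlier results of these data known. Named were all 50 genes; each called one, or the one with the highest mean CPM in a family without a call, with all libraries; called partners and scaffolds with a log2 fold change of at least 0.5 in size; Thra, Gad1, Gad2, Slc32a1 and Slc17a7. Ratios, Magi3 and marker genes named outside this rule were chosen after their values were seen. Mutant 10 was left out because its table repeats that of mutant 7; which animal gave the counts is not known.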

Additional observations from a re-analysis of the deposited data

Results flagged for a closer look

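For each of the 44 tested adhesion genes, the highest and lowest control were compared with the nearest other control. In 2 genes the gap took up more of the controls' whole range than Dixon's critical value at the 95% level allows, where chance flags about 1 in 20 groups, or 2.2 of 44. Slitrk3 was at 96.0 CPM in control 4 and 87.6 to 88.1 CPM in the other controls (gap over range 0.944). Ntng2 was at 12.2 CPM in control 4 and 2.62 to 4.01 CPM in the other controls (gap over range 0.855). In both genes the library that stands apart is control 4, and neither gene was called.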

How the results depend on the processing

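With limma-voom 18 adhesion genes were called (8 lower, 10 higher) of 3147 genes in all, with the genomic-span offset 17 (9 lower, 8 higher) of 2712, and without controls 1 and 4 together 19 (9 lower, 10 higher) of 2778, from 8 (5 lower, 3 higher) of 1549. The 8 genes were called in each of these 3 fits. Without controls 1 and 4 the spread of the controls at most long adhesion genes is narrower by construction. That fit is therefore not an independent check of the offset. Leaving out 1 library gave 4 to 14 called adhesion genes (3 to 9 lower, 1 to 9 higher) of 734 to 2347 in all, and a median log2 fold change of -0.02 to 0.12. The falls numbered 9 without control 1 and 3 without mutant 6 or 8, and the rises 1 without control 3, mutant 6 or mutant 7 and 9 without control 4. DESeq2's test, the exonic-length offset and the term for libraries without Y-linked reads called 9 adhesion genes each, and the other scalings and filters 8. No called gene changed direction under any of the 17 alternatives. No paired analysis was run because the labels give no pairing: the groups share no replicate number, and litter or sorting day is not stated. The number of libraries, the spread between controls 1 and 4 and the reads lost where genes overlap limit what can be seen. At the long gene Cntnap5a, edgeR with all libraries and no offset left -0.69 with SE 0.25 uncalled, and limma-voom called it at -0.58. DESeq2's test and edgeR with the exonic-length offset also called Cntnap5a.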

Other observations

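Gad2 and Slc32a1, the second GABA-making enzyme and the vesicular GABA transporter, were not called (adjusted p = 0.716 and 0.96). Lgi3 has a neighbour, chosen after its values were seen, that fell more than Lgi3 did: Hr, a thyroid hormone response gene of brain, starts 13.888 kb away and went from 41.7 ± 4.28 CPM (SD, n = 4) to 6.59 ± 1.46 CPM (n = 3), a log2 fold change of -2.66 with SE 0.17 (adjusted p = 3.75e-06). Between them, Reep4 at 6.927 kb from Lgi3 was at -0.54 (adjusted p = 0.116), and Bmp1, 10.451 kb away on the other side, at 0.16 (adjusted p = 0.7).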
